A study of Arabidopsis thaliana with 9 samples.

Results

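The 30 nuclear genes described here encode subunits of the photosynthetic electron transport chain and of the chloroplast ATP synthase. They were listed by locus code and not by a cut on any measured value, but with earlier results of these data known. All 30 were found among the 17680 genes of the deposited table. By complex, they comprise 12 genes of photosystem I, 10 of photosystem II, 1 of the cytochrome b6f complex, 2 of plastocyanin, 2 of ATP synthase, 2 of ferredoxin-NADP+ reductase (FNR) and 1 of ferredoxin. The symbols that RefSeq gives to the 30 codes in its TAIR10.1 annotation matched these roles. The mRNA of Arabidopsis thaliana seedlings, wild type of the accession Columbia-0, was measured by sequencing transcript 3′ ends, with 3 libraries for each of 3 groups. WLc seedlings grew for 2 days under unbroken white light of 100 µE m-2 s-1. R1h seedlings spent 47 h in darkness and then 1 h under red light of 10 µE m-2 s-1. D seedlings stayed dark for the whole 2 days. The seeds of R1h and D had been given white light to start germination and then a far-red pulse before the time in darkness, so that little active phytochrome was left (the "true dark" protocol). Whole seedlings were collected, so fewer green cells and less RNA per green cell cannot be told apart in these values.

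In the thylakoid membrane, photosystem II takes electrons from water and passes them through the cytochrome b6f complex to plastocyanin, a small copper protein. Photosystem I moves them on to ferredoxin, and FNR uses them to make NADPH. The proton gradient built on the way drives ATP synthase. The core subunits that carry the pigments and cofactors are encoded in the plastid, while most of the small, peripheral and lumenal subunits are nuclear and imported. Dark-grown seedlings hold etioplasts without working photosystems. In the dark, Phytochrome Interacting Factors (PIFs) hold back part of the photosynthetic programme by binding the G-box and the related PIF-binding element (PBE) in promoters, and red light removes them through phytochrome.

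The deposited values are pseudo-counts (reads per gene brought to a common library size), and each is the authors' mean of the 3 libraries of a group. Values per library were not part of the table, so no SD, n or p-value could be given and no difference has a replicate check. Brackets below hold 95% counting intervals (Clopper-Pearson), which cover the sampling of reads only. About 0.33 pseudo-counts corresponded to 1 read in any group. The member with the fewest reads, PSBO2 in D, rested on 249. Fold changes are differences of log2(value + 1), and a gene was called higher or lower at 2-fold or more. Reads were counted in the last 500 bases of each transcript, so levels of different genes are given per this fixed window and need no correction for transcript length. The summed depth was 12.5 M pseudo-counts in WLc, against 11.99 M in R1h and 11.4 M in D. Of 10 reference genes, TUB1 and ACT8 were called lower in WLc than in D, at -3.33 and -1.08, and the median of the list was -0.40 in WLc and 0.12 in R1h. All 5 seed reserve markers were called lower in WLc than in D (their sums were 249.8 in WLc, 2673 in R1h and 1724 in D), as was 1 of 5 root markers, CASP1, with 952 in WLc, 2852 in R1h and 3699 in D. CASP1 carried the root list sums (1337 in WLc, 3183 in R1h and 4057 in D), while COBL9 and EXPA7 stood at 0.75 and 0.49 in WLc against D and the list median was 0.05. Of 4 stomatal lineage markers measured, FAMA was called higher in WLc (list sums 610, 253 and 243). The part of these markers in the differences below was not tested.

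The promoters of the genes that parted most from their duplicates, chosen after their levels were seen, are shown first, because PIFs and other light-signalling factors are known to act through short motifs there. Each sequence covers the 250 bases before the gene start in RefSeq's TAIR10.1 annotation and is written 5′ to 3′ on the gene's strand, whereas the study used TAIR9 gene models, whose starts may differ. Capitals mark the G-box (CACGTG), the PBE (CACATG), the I-box (GATAAG), the CCA1 site (AAAAATCT) and the evening element (AAAATATCT), searched on both strands. The G-box is the palindrome known for PIF and HY5 binding, and the I-box is a motif known from promoters of photosynthetic genes.

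Both PSAH genes encode subunit H of photosystem I, and their promoters differed in the motifs marked. PSAH2 (AT1G52230, chr1:19454548-19454797, plus strand) held an I-box that began 84 bases before the gene start and G-boxes at 67 and 12. PSAH1 (AT3G16140, chr3:5469595-5469844, minus strand) held none of them.
PSAH2: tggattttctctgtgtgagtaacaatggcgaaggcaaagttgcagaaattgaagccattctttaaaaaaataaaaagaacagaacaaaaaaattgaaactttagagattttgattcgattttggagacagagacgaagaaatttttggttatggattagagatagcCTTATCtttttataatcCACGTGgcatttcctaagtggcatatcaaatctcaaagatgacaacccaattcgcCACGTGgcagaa
PSAH1: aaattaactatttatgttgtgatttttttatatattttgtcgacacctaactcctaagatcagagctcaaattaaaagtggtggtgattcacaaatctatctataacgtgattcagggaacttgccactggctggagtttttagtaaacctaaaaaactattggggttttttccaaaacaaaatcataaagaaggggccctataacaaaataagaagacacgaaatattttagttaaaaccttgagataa

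The PSBQ genes encode a lumenal protein of the oxygen-evolving complex, and both promoters held a pair of G-boxes. They lay 145 and 77 bases before the start in PSBQ2 (AT4G05180, chr4:2673244-2673493, minus strand), followed by an I-box at 15, and 83 and 55 bases before it in PSBQ1 (AT4G21280, chr4:11334102-11334351, plus strand).
PSBQ2: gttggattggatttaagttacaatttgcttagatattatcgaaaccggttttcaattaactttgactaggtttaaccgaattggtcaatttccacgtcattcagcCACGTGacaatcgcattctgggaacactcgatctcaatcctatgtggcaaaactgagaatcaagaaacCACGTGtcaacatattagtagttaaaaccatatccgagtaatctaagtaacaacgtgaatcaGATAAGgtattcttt
PSBQ1: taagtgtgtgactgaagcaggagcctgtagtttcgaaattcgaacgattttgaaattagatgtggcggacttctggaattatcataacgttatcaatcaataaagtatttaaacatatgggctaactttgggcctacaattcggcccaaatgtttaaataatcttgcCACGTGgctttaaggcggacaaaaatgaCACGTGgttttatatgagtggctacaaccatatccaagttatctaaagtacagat

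The PSAE genes encode a stromal subunit of photosystem I at the ferredoxin docking side. PSAE1 (AT4G28750, chr4:14204062-14204311, minus strand) held no marked motif, and PSAE2 (AT2G20260, chr2:8736484-8736733, plus strand) held 1 G-box, 63 bases before its start.
PSAE1: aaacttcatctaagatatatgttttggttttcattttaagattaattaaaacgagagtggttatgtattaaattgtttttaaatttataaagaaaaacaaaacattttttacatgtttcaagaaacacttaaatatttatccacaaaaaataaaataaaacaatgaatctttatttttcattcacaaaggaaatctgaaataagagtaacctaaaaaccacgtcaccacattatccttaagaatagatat
PSAE2: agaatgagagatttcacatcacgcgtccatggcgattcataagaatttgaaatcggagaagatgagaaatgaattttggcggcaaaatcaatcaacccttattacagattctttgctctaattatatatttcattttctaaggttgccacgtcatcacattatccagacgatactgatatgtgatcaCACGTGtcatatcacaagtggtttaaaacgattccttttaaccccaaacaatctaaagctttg

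Over all 30 members, 5 promoters held a G-box (16.7%), against 6.49% of the 27443 nuclear promoters of the same length. They were those of PSAE2, PSAH2, PSBQ1, PSBQ2 and the ATP synthase gene ATPD. The I-box was found in 8 (26.7%, against 12.3%), the PBE in 2 (6.67%, against 11.1%), the CCA1 site in 2 (6.67%, against 6.69%) and the evening element in 1 (3.33%, against 2.36%). Further motifs were searched but not marked. The GT-1 box (GGTTAA) was found in 5 (16.7%, against 14.6%). The CCAAT box was found in 15 (50%, against 46.0%) and the TATA box (TATAAA) in 15 (50%, against 47.3%). These are counts of letters in a window and say nothing of binding. The PSBS window in this annotation lies 1547 bases before the coding start, against 26 to 306 in the other 29 members.

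All 30 members were higher in WLc than in D, and each passed 2-fold, where 13.9% of the 17299 genes tested did so. The log2 fold changes ran between 1.91 for PSAE2 and 3.88 for PSAH2 with a median of 2.85, beside a median of 0.02 over all genes tested. Together the members held 11.5% of all pseudo-counts in WLc, 2.15% in R1h and 1.58% in D. In R1h the differences were smaller. As deposited, 29 of 30 members stood above D there. Of these, 4 (PSBS, FD2, PSAH2 and PETE1) passed 2-fold, where 3.89% of all genes tested did so. The median was 0.46, beside 0.00 over all genes. Between WLc and R1h, 29 of 30 members passed 2-fold (12% of all genes tested), all higher in WLc, and PSBS was the exception at 0.78. When the columns were scaled by the reference genes PSBS stood at 1.62 and all 30 passed, as did 41.2% of all genes tested. The median of all genes was then 0.86. The members' levels in the plot by gene show WLc to the right of both other groups in every row.

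**Figure D1:**
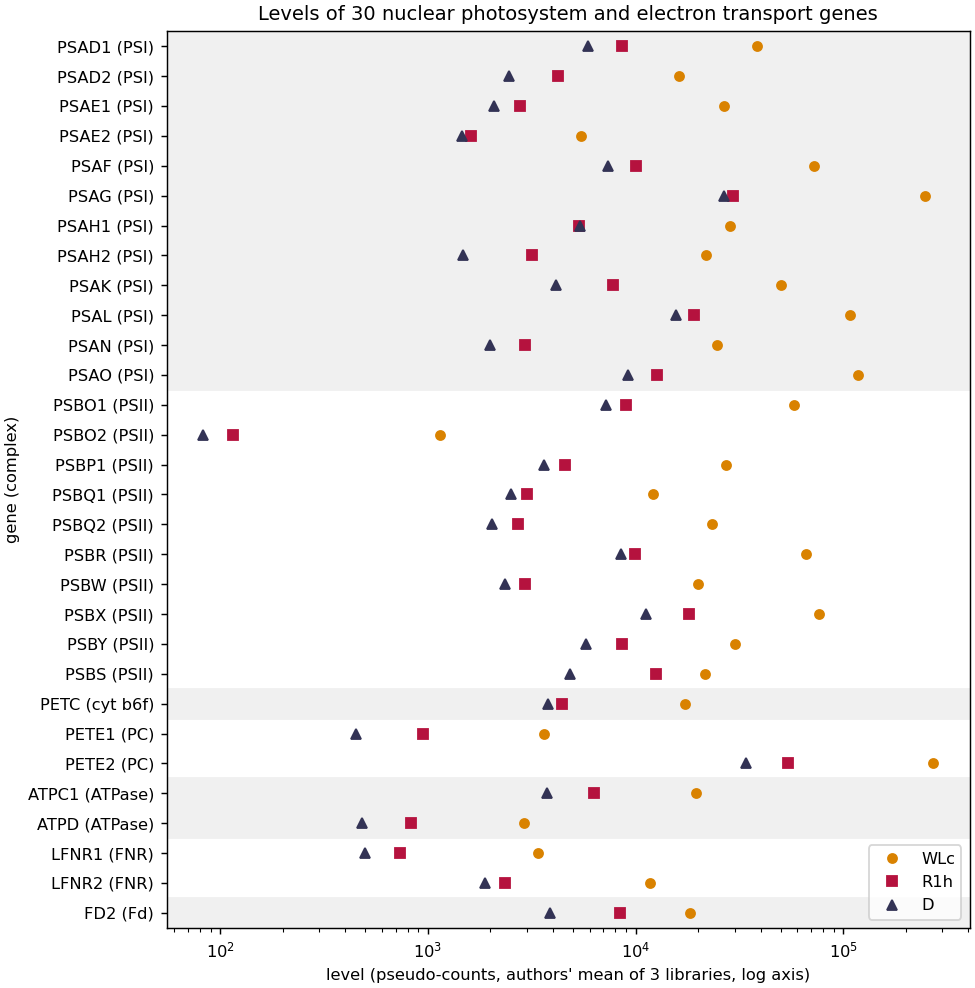
Levels of the 30 members in pseudo-counts (log axis, authors' mean of 3 libraries) in WLc (circles), R1h (squares) and D (triangles), ordered by complex with alternate complexes shaded. The WLc level is the highest of the 3 in all 30 rows, PETE2 and PSAG have the highest WLc levels (271120 and 247134) and PSBO2 the lowest in every group.

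Among the subunits of photosystem I, the stromal subunits D and E form, with the plastid-encoded subunit C, the side where ferredoxin docks. PSAD1 (AT4G02770) had 38499 pseudo-counts in WLc, 8628 in R1h and 5892 in D, and PSAD2 (AT1G03130) had 16163, 4233 and 2461. Both copies differed from D by almost the same amount in WLc, at 2.71 and 2.72 on the log2 scale. PSAE1 had 26759 in WLc, 2768 in R1h and 2071 in D, while PSAE2 had 5472, 1604 and 1452. Here the copies parted. PSAE1 was 3.69 higher in WLc (3.65 to 3.73) and PSAE2 1.91 (1.87 to 1.96), the smallest WLc difference of any member.

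Subunits F, N and the pair G and K line the edge of photosystem I, F and N on the lumenal side where plastocyanin docks and G and K beside the antenna. PSAF (AT1G31330) had 72030 pseudo-counts in WLc, 10047 in R1h and 7398 in D, and PSAN (AT5G64040) had 24731, 2930 and 1980. PSAG (AT1G55670) was the third most abundant transcript of the whole table in WLc, with 247134, against 29329 in R1h and 26767 in D. In R1h it stood only 0.13 above D (0.12 to 0.15), although its WLc difference of 3.21 lay above the members' median. The R1h value was -0.001 when the columns were scaled by the reference genes, so whether PSAG lay above D depended on the scaling. PSAK (AT1G30380), by contrast, had 49927 in WLc, 7773 in R1h and 4143 in D, a difference of 0.91 in R1h (0.88 to 0.94) and 3.59 in WLc.

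Subunits H, L and O bind on the side where the mobile light-harvesting complex II can attach during state transitions. PSAL (AT4G12800) had 107529 pseudo-counts in WLc, 19160 in R1h and 15630 in D, and PSAO (AT1G08380) had 117903, 12675 and 9210. The differences from D in WLc were 2.78 for PSAL and 3.68 for PSAO. PSAH1 had 28461 in WLc, 5314 in R1h and 5371 in D, and PSAH2 had 21765, 3167 and 1473. As deposited, PSAH1 was the only member not above D in R1h, at -0.02 (-0.05 to 0.02). PSAH2 stood there at 1.1 (1.05 to 1.16), a value that came to 1.00 after quantile normalization and 0.97 after scaling by the reference genes. Over the 12 genes of photosystem I the sum was 9.02 times as high in WLc as in D and 1.28 times as high in R1h as in D.

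In photosystem II, the lumenal proteins O, P and Q shield the manganese cluster that splits water. PSBO1 (AT5G66570) had 58005 pseudo-counts in WLc, 9035 in R1h and 7238 in D. PSBO2 (AT3G50820), the second copy, was the lowest member by far with 1144, 115 and 82.6. PSBP1 (AT1G06680) had 27414 in WLc, 4575 in R1h and 3603 in D. These levels placed P between the O copies in all groups. PSBQ1 had 12201 in WLc, 2997 in R1h and 2516 in D, and PSBQ2 had 23419, 2712 and 2044. PSBQ2 was thus the lower copy in R1h and D and the higher one in WLc, with differences from D in WLc of 3.52 for PSBQ2 and 2.28 for PSBQ1. PSBO1 and PSBP1 stood at 3.00 and 2.93.

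The small membrane proteins of photosystem II stood between 2.38 and 3.10 above D in WLc. PSBR (AT1G79040), which helps to hold the lumenal proteins in place, had 66066 pseudo-counts in WLc, 9885 in R1h and 8474 in D. PSBW (AT2G30570), which stabilises supercomplexes with the antenna, had 20017, 2942 and 2340. PSBX (AT2G06520), which lies near cytochrome b559, had 76483, 18183 and 11255. In R1h, PSBX stood 0.69 above D (0.67 to 0.71), while PSBR and PSBW stood at 0.22 and 0.33. PSBY (AT1G67740), another neighbour of cytochrome b559, had 30088 in WLc, 8566 in R1h and 5762 in D. Its difference from D was 2.38 in WLc and 0.57 in R1h.

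PSBS (AT1G44575) is not part of electron transfer but the sensor of lumen acidity that switches on the harmless release of excess light energy. Its pattern stood apart from that of the other photosystem II genes. It had 21575 pseudo-counts in WLc, 12523 in R1h and 4858 in D, which gave the largest R1h difference of any member, 1.37 (1.34 to 1.39), and with 2.15 the smallest WLc difference in photosystem II. It remained above 2-fold in R1h under every scaling tried, between 1.23 and 1.37. For the 9 other photosystem II genes the R1h differences lay between 0.22 and 0.69. Over all 10 the sum was 6.98 times as high in WLc as in D and 1.48 times as high in R1h as in D.

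**Figure D2:**
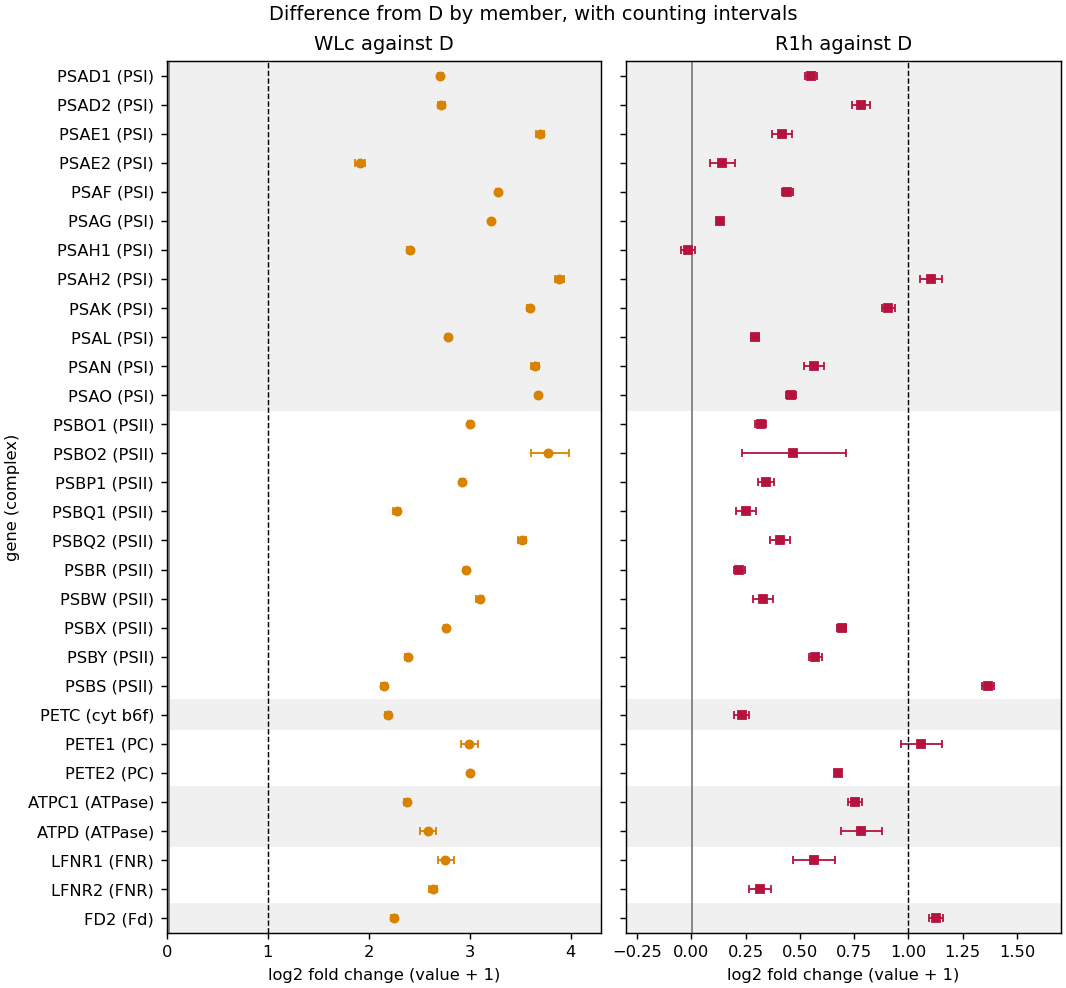
Log2 fold change of each member against D in WLc (left) and in R1h (right, on a narrower axis), with 95% counting intervals, the 2-fold limit as a dashed line and the median of all tested genes as a grey line. All 30 members lie past 2-fold in WLc, whereas in R1h PSBS, FD2, PSAH2 and PETE1 do, at 1.37, 1.13, 1.1 and 1.06, and PSAH1 lies at -0.02.

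Between the photosystems, PETC (AT4G03280) encodes the Rieske iron-sulphur protein of the cytochrome b6f complex. It had 17234 pseudo-counts in WLc, 4434 in R1h and 3776 in D, and its differences from D were 2.19 in WLc and 0.23 in R1h. Plastocyanin is encoded by PETE1 (AT1G76100) and PETE2 (AT1G20340), which differed in level more than any other pair in WLc. PETE2 was the second most abundant transcript of the table in WLc with 271120, against 54135 in R1h and 33859 in D, and PETE1 had 3617, 944 and 453. Their differences in WLc were the same within counting error, 3.00 for each copy. In R1h, PETE1 stood at 1.06 (0.97 to 1.15) and PETE2 at 0.68 (0.67 to 0.69). The interval of PETE1 reached below 2-fold, and the value was 0.99 when the columns were scaled to the same total.

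On the acceptor side, FD2 (AT1G60950) encodes the major leaf ferredoxin. It had 18331 pseudo-counts in WLc, 8405 in R1h and 3853 in D, so that both steps were of almost the same size, 1.13 in R1h against D (1.09 to 1.16) and 1.12 in WLc against R1h. The R1h difference was 0.99 after scaling by the reference genes. LFNR1 (AT5G66190) and LFNR2 (AT1G20020) encode the leaf FNR proteins. LFNR2 had 11736 in WLc, 2356 in R1h and 1892 in D, and LFNR1 had 3371, 736 and 498. Neither copy passed 2-fold in R1h, with 0.32 for LFNR2 and 0.56 for LFNR1, and both did in WLc, with 2.63 and 2.76.

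The 2 ATP synthase genes among the members encode the gamma and delta subunits. Gamma (ATPC1, AT4G04640) is the rotating shaft and the site of thiol regulation, and delta (ATPD, AT4G09650) sits at the head of the stator. ATPC1 had 19450 pseudo-counts in WLc, 6328 in R1h and 3751 in D, and ATPD had 2892, 829 and 482. The pair kept close together in both comparisons with D. In R1h they stood at 0.75 (0.72 to 0.79) and 0.78 (0.69 to 0.88), and in WLc at 2.37 and 2.58. ATPG, a further nuclear subunit of ATP synthase that is not a member, stood at 0.06 in R1h and 2.08 in WLc.

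Set side by side, the medians of the complexes took a different order in WLc and in R1h. The median WLc difference from D was 3.24 for photosystem I, 3.00 for plastocyanin, 2.95 for photosystem II, 2.69 for FNR, 2.48 for ATP synthase, 2.25 for ferredoxin and 2.19 for the cytochrome b6f gene. In R1h, ferredoxin stood first with 1.13, followed by plastocyanin with 0.87, ATP synthase with 0.77, photosystem I with 0.45, FNR with 0.44, photosystem II with 0.38 and cytochrome b6f with 0.23. The ranges of the photosystems overlapped almost wholly in WLc, 1.91 to 3.88 for photosystem I and 2.15 to 3.78 for photosystem II. They also overlapped in R1h, -0.02 to 1.1 for photosystem I and 0.22 to 1.37 for photosystem II. Both FNR genes, at 0.32 and 0.56 in R1h, lay within these ranges. The medians thus do not separate the photosystems in either comparison, nor FNR from them in R1h. Several of the other groups rest on 1 or 2 genes. The R1h place of ATP synthase holds for its 2 members only, as ATPG stood at 0.06. The R1h difference, expressed as a percentage of the WLc difference on the log2 scale, had a median of 13.0% over the 30 members, and of 7.61% when the columns were scaled by the reference genes. It was 63.5% for PSBS, the highest, ahead of FD2, 35.4% for PETE1, 31.8% for ATPC1 and 30.3% for ATPD, and -0.63% for PSAH1, 4.11% for PSAG, and 7.5% for both PSAE2 and PSBR. Both differences are taken from the same D column, so this percentage is a description only.

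Within a complex the subunits were far from equal in level. Over the 30 members the highest level was 237 times the lowest in WLc, 473 times in R1h and 410 times in D. Within photosystem I the factor was 45.2 in WLc, 18.3 in R1h and 18.4 in D, PSAG being the highest and PSAE2 the lowest in WLc, R1h and D alike. Within photosystem II it was 66.8, 159 and 136, with PSBX highest and PSBO2 lowest in each group. The order of the 30 levels was largely shared between groups, with a Spearman rho across genes of 0.90 between WLc and D and of 0.97 between R1h and D. These genes share libraries and are not independent replicates.

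The 7 pairs of duplicated genes show how the supply of a subunit was divided between its copies. In RefSeq's TAIR10.1 transcripts no 50-base window in the last 500 bases was shared by the copies of any pair, so unique reads keep them apart. Windows were shared with loci of neighbouring code in 6 members, and the unique share was 27.5% in PSAH1, 66.7% in PSAG, 72.3% in PSAH2, 76.7% in LFNR1, 80.5% in PSAE1 and 96.9% in PSAE2. These shares describe RefSeq's transcripts and need not describe which reads the authors counted. The antenna genes LHCB1.5 and LHCB2.3 had 195893 and 15385 pseudo-counts in WLc although none of their windows was unique.

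PSAE1 supplied 83.0% of the PSAE pseudo-counts in WLc (82.8 to 83.3), 63.3% in R1h (62.5 to 64.1) and 58.8% in D (57.8 to 59.7). The difference from D in WLc was larger by 1.78 log2 units in PSAE1 than in PSAE2 (1.72 to 1.84, a normal approximation to counting error, as for the other gaps between copies), the widest gap of any pair. PSAH2 supplied 43.3% of the PSAH pseudo-counts in WLc, 37.3% in R1h and 21.5% in D, and its difference exceeded that of PSAH1 by 1.48 in WLc (1.43 to 1.53) and by 1.12 in R1h (1.06 to 1.18). PSBQ2 supplied 65.7% in WLc, 47.5% in R1h and 44.8% in D, so the larger copy of this pair in WLc was the smaller in the other groups. Its difference exceeded that of PSBQ1 by 1.24 in WLc (1.19 to 1.29) and by 0.16 in R1h (0.09 to 0.22). In R1h the division of PSAH thus lay nearer to WLc, whereas those of PSAE and PSBQ lay nearer to D.

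The division of the other 4 pairs differed less between groups. PSAD1 supplied 70.4% in WLc, 67.1% in R1h and 70.5% in D. LFNR1 supplied 22.3% in WLc, 23.8% in R1h and 20.8% in D. PETE1 supplied 1.32% in WLc, 1.71% in R1h and 1.32% in D, and PSBO2 1.93%, 1.25% and 1.13%. In WLc, the difference of PSAD2 exceeded that of PSAD1 by 0.01 (-0.03 to 0.05), and that of PSBO2 exceeded that of PSBO1 by 0.77 (0.59 to 0.96).

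**Figure D3:**
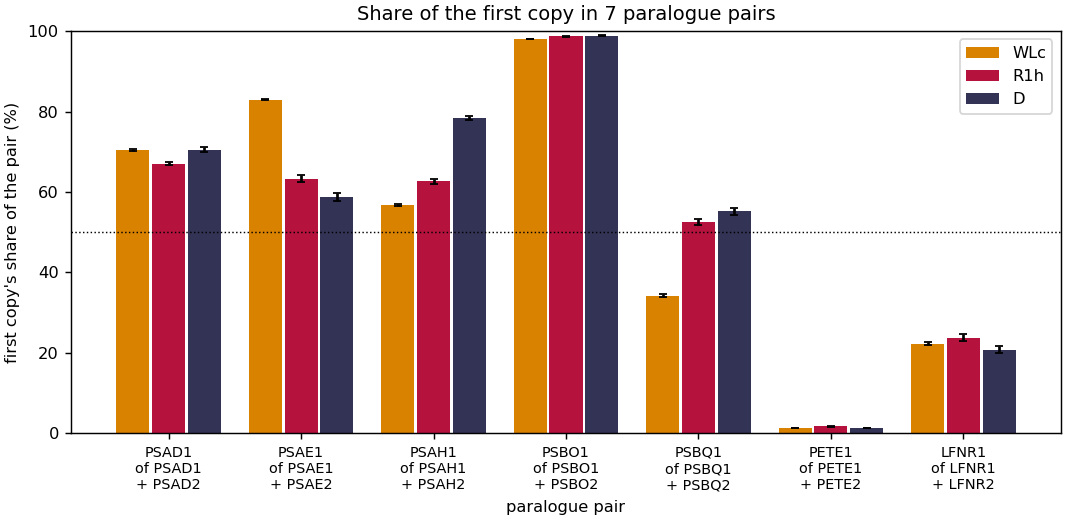
Share of the first-named copy in the summed pseudo-counts of 7 duplicated gene pairs (percent) in WLc, R1h and D, with exact binomial 95% counting intervals and a dotted line at 50%. PSAE1 stands at 83.0% in WLc against 58.8% in D, PSAH1 at 56.7% against 78.5% and PSBQ1 at 34.3% against 55.2%, while the PSAD, PSBO, PETE and LFNR pairs differ less between groups.

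Of the members, PSBQ2, PSBY and PETC belong to the 129 genes that earlier work used by the study lists as repressed by PIFs, and none to the 209 listed as induced. These 3 passed 2-fold in WLc, at 3.52, 2.38 and 2.19, and none did in R1h, at 0.41, 0.57 and 0.23. The 4 members called in R1h are not in that list, which holds only 3 of the 30 members. Over all 17299 genes tested, 13.9% were called higher in WLc and 3.89% in R1h. With so few genes, these counts do not show whether the members called in R1h are PIF targets.

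Other genes of the apparatus place these values. Of 4 further nuclear subunits 3 were called higher in WLc than in D, where 13.9% of all genes tested were. These were PSBTN (AT3G21055, a small photosystem II protein) at 3.31, ATPG (AT4G32260, a stator subunit of ATP synthase) at 2.08 and PETM (AT2G26500, a small cytochrome b6f subunit) at 1.46. The fourth, FD1 (AT1G10960), the minor leaf ferredoxin, had 1524 pseudo-counts in WLc, 2385 in R1h and 963 in D. It was the one called in R1h, at 1.31 (1.25 to 1.37), where 3.89% of all genes tested were called higher. The WLc level of FD1 lay under its R1h level, unlike that of any member. FD1 and FD2 thus both passed 2-fold in R1h.

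Relatives that work outside the main chain were mixed. Of 11 tested, 4 were called higher and 1 lower in WLc than in D, with a median of 0.64. Among all 17299 genes tested, 13.9% were called higher in WLc and 1846 genes lower. CURT1B (AT2G46820), which bends the thylakoid at grana margins, had 18370 pseudo-counts in WLc and 2211 in D (3.05), and the PSBP-like genes PPL2 (AT2G39470) and PPL1 (AT3G55330) stood at 2.64 and 2.15. PSBP2 (AT2G30790) had 17.9 in WLc and 1 read in D, a ratio of 54.0 (9.33 to 2179). The one called lower, named after its value was seen, was RFNR1 (AT4G05390), the root-type FNR, with 168 in WLc and 377 in D (-1.16). The other root-type gene, RFNR2 (AT1G30510), had 197 in WLc and 195 in D (0.02). None of the 11 was called in R1h, where 3.89% of all genes tested were called higher. In R1h CURT1B stood at 0.28 and FD3 (AT2G27510), a ferredoxin of non-green tissue, at 0.03.

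Of 20 assembly and repair factors 9 were called higher in WLc than in D and none lower (median 0.81), and 1 in R1h (median 0.27). HCF173 (AT1G16720), which is needed for translation of the photosystem II protein D1, had 2496 pseudo-counts in WLc, 670 in R1h and 131 in D, and was the one called in R1h, at 2.34 (2.2 to 2.51). In WLc it stood at 4.24, above every member. The photosystem II factors PSB28 (AT4G28660) and PSB27 (AT1G03600) stood at 2.52 and 2.05, and HCF164 (AT4G37200), a thioredoxin-like protein for cytochrome b6f assembly, at 1.90. Over all tested genes 13.9% were called higher in WLc and 3.89% in R1h, so the R1h count of 1 in 20 lay near that background.

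The antenna genes had larger median differences than the subunits they serve. Among all genes tested, 13.9% were called higher in WLc than in D and 3.89% in R1h. All 4 photosystem I antenna genes were called in WLc (median 3.61, beside 3.24 for the photosystem I subunits). Their WLc range of 3.24 to 4.93 overlapped that of the subunits, 1.91 to 3.88. In R1h 1 was called, LHCA1 (AT3G54890), at 1.62, and the antenna median was 0.49, beside 0.45 for the subunits. LHCA1 had 96768 pseudo-counts in WLc, 9755 in R1h and 3164 in D. All 13 photosystem II antenna genes were called in WLc (median 4.87, beside 2.95 for the photosystem II subunits) and 8 in R1h (median 1.71, beside 0.38). Their WLc range of 2.60 to 8.93 also overlapped that of the subunits, 2.15 to 3.78. In WLc the sum over this antenna list was 992217, against 41617 in D. The sum over the 10 photosystem II members was 336412 in WLc, against 48173 in D. As counted, these subunits thus stood below the antenna in WLc and slightly above it in D. Only uniquely mapped reads were counted. In RefSeq's transcripts the unique share of antenna genes ran between 0% (LHCB1.5 and LHCB2.3) and 100% (such as LHCB1.1), and was 100% in the photosystem II members. The part of shared windows in this order was not tested.

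**Figure D4:**
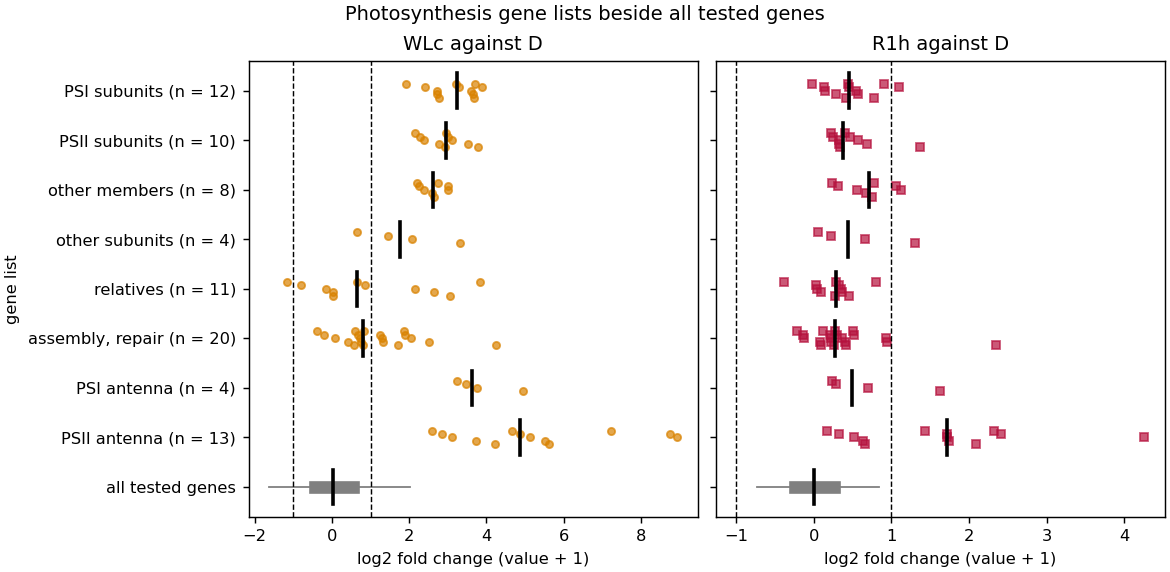
Log2 fold changes against D in WLc (left) and in R1h (right) for the members, split into photosystem I, photosystem II and the 8 others, and for other photosynthesis lists, each point a gene and each black bar a median, with dashed lines at 2-fold. The grey row gives the 5th to 95th percentile (line) and the quartiles (thick bar) of all tested genes, whose median is 0.02 in WLc, against 3.24 for photosystem I, 2.95 for photosystem II and 4.87 for the photosystem II antenna.

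The 30 genes with plastid locus codes are given as a group only. Of these 18 were called higher in WLc than in D, where 13.9% of all genes tested were, and none lower (median 1.37). None was called in R1h (median -0.23), where 3.89% of all genes tested were called higher, so this count lay near that share. The sum over the 30 plastid codes was 9323 pseudo-counts in WLc, 7051 in R1h and 6067 in D, below that of several single members. Libraries were made from polyadenylated RNA, which plastid messages mostly lack, so these levels are not comparable with those of nuclear genes.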

How the data were processed

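The authors made poly(A)-selected 3′-end libraries from wild-type seedlings, aligned the 50-base reads with Bowtie to TAIR9 representative transcripts without mismatches, and counted reads mapping uniquely to the coding strand of the last 500 bases. The versions the authors used of Bowtie and edgeR were not given in the sources used here. As signal values the authors deposited edgeR pseudo-counts at a common library size, in 1 mean column per group, so the per-library tests that had been intended could not be run. The lowest values above 0 lay on 3 levels per column (0.305 to 0.351), which gave the reads behind each value and the counting intervals. These cover counting error only. With 1000 pseudo-counts in both groups the interval reached 0.07 log2 units either way, with 100 it reached 0.23. PCR copies were not marked by molecular identifiers, so reads are not independent molecules. The labels do not say whether the 3 libraries of a group came from separate cultures.

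Values were compared as log2(value + 1) with Python 3.11.15 scripts (versions of the packages: numpy 2.4.6, pandas 2.3.3, scipy 1.17.1), for the 17299 genes with at least 10 pseudo-counts in at least 1 group. All 30 members passed. Calls used 2-fold. Alternatives were a pseudocount of 5, no filter on low values, 3 other scalings, and calls on the whole counting interval. All members are named. From each other list, up to 4 called genes with the largest differences are named, or the 2 of highest mean where none was called. The members, lists, settings and naming rule were chosen with earlier results of these data known. RefSeq (TAIR10.1) held 17628 of the 17680 locus codes and gave symbols, promoters and the uniqueness of 50-base windows on either strand. Windows and gene starts refer to that annotation, not to the TAIR9 models. The scripts were tested on simulated data.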

Additional observations from a re-analysis of the deposited data

How the results depend on the processing

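No paired analysis was possible because the libraries share replicate numbers in the labels but only 1 mean per group was given. For the same reason no replicate could be left out. All 30 members stayed called in WLc against D under all 6 alternatives, where between 9.69% and 35% of all genes tested were called higher. In WLc against R1h 29 or 30 stayed called, where between 8.13% and 41.2% of all genes were. In R1h against D the count of 4 (3.89% of all genes tested) became 3 when the columns were scaled to the same total (3.5%). It was also 3 when the whole counting interval had to pass 2-fold (2.47%). It was 2 (PSBS and FD2) with quantile normalization (3.59%) and 1 (PSBS) when scaled by the reference genes (3.12%). The count of 1 in 30 lay near the share of all genes. Quantile normalization did not shift all members alike, and in WLc against D gave 1.94 for PSAL, 2.93 for PSAO and 2.89 for LFNR1. The reference genes moved the median of all tested genes to 0.72 in WLc against D, -0.13 in R1h against D and 0.86 in WLc against R1h. Scaling to the same total moved it to -0.11 in WLc against D. The reference scaling used the geometric mean of all 10 genes. TUB1, at -3.33 in WLc against D and with 3.55% unique windows, thus weighed on it. A scaling without TUB1 was not run. With the reference genes 6081 genes were called higher and 820 lower in WLc than in D, against 2412 and 1846 as deposited. The members' median in WLc against D was 3.56 with the reference genes, 2.73 with the same total and 2.62 with quantile normalization. In R1h against D it was 0.33, 0.40 and 0.41, and in WLc against R1h 3.21, 2.31 and 2.22. The median percentage of the WLc difference reached in R1h was 7.61% with the reference genes and 11.5% with the same total, alternatives chosen after the data were seen.

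Dividing levels by the unique share of 3′ windows gave PSAE1 a share of 85.5% in WLc, 67.5% in R1h and 63.2% in D, PSAH1 77.5%, 81.5% and 90.6%, and LFNR1 27.2%, 28.9% and 25.5%, with the order of the groups kept. Without the 4 members under 80% unique, the SD of log2 levels was 1.75 in both WLc and D, against 1.82 and 1.81 over all members. Depth limited PSBO2 most, whose R1h difference from D had an interval of 0.23 to 0.71. No difference has a replicate check, so none can be told from the spread between libraries.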
